A study of Mus musculus with 2 samples.

Results

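The miR-99/100 and miR-125 families are the subject here. They were read as the 6 precursor genes Mir99a, Mir99b, Mir100, Mir125a, Mir125b-1 and Mir125b-2, out of 2202 microRNA (miRNA) genes counted. The genes were chosen by name, from their membership of 3 clusters in which each also has a let-7 gene. This rule uses no measured value, although the families were taken up with earlier results of these data known. All 6 identifiers matched the annotation by symbol, and all 6 genes were detected, that is, had at least 10 counts in both libraries. The material was adrenal gland of male B6CASTF1/J mice, the first-generation hybrid of C57BL/6J with the wild-derived strain CAST/EiJ, on postnatal day 4. There was 1 group with 2 libraries of small RNA under 30 nucleotides, biological replicate 1 from male 3 and biological replicate 2 from male 4. Both entries share a donor label, so that the animals are told apart by these male numbers alone, and no second condition was measured.

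MiRNAs are short RNAs cut from a hairpin precursor, whose left (5p) or right (3p) arm is loaded into a silencing complex and pairs with target messages mainly through its seed, bases 2 to 8. The miR-99/100, let-7 and miR-125 genes sit side by side in an arrangement shared with insects. The miR-125 family is the vertebrate counterpart of the nematode lin-4, and lin-4 and let-7 are classic timers of development that act on Lin28, among other messages. In human adrenocortical tumour cells miR-99a and miR-100 lower components of growth signalling through IGF1R and mTOR, and in rodent steroid-producing cells miR-125a acts on the lipoprotein receptor Scarb1, which takes up cholesterol.

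The mature 5p forms are shown because their sequences set which reads can be told apart. They were taken from RefSeq for GRCm38.p6, which had entries for all 6 genes, and the seed is in capitals.
miR-99a-5p: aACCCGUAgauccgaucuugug
miR-100-5p: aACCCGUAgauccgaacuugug
miR-99b-5p: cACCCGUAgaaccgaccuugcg
miR-125a-5p: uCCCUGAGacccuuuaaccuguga
miR-125b-5p: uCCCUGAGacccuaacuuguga

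The miR-99/100 forms share the seed ACCCGUA and the miR-125 forms the seed CCCUGAG. With positions counted from 1 at the 5′ end and the first-named form's base given first, miR-99a-5p differs from miR-100-5p by the single substitution U16A. It differs from miR-99b-5p by A1C, U11A, U16C and U21C. The form miR-125b-5p is made in identical sequence by Mir125b-1 and Mir125b-2, and it matches miR-125a-5p at 21 of 24 aligned positions.

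The 3p forms of the miR-125 genes are given next, since those of the Mir125b genes are the only mature forms of these 2 precursors that differ from each other.
miR-125b-1-3p: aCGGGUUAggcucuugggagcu
miR-125b-2-3p: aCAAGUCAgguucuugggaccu
miR-125a-3p: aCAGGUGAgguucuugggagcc

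Reads that fitted more than 1 locus were set aside in the deposited tables and given to no gene. A read of the whole of miR-125b-5p fits both of its loci equally. The counts of Mir125b-1 and Mir125b-2 below therefore leave out reads of their common 5p form, and the level of miR-125b as a miRNA is uncertain. Reads with several loci numbered 3176275 in replicate 1 and 1684373 in replicate 2, over all miRNAs and other sequences, and how many were miR-125b-5p was not tested. The other mature forms of the 6 genes are each found at a single gene of the RefSeq table.

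The miR-99/100 family stood well above the miR-125 family in uniquely placed reads, and Mir99a gave most of it. The 3 miR-99/100 genes held 3.50% ± 0.384 of all sense-strand miRNA counts (SD, n = 2), with 3.77% in replicate 1 and 3.23% in replicate 2. The 3 miR-125 genes held 0.644% ± 0.143, with 0.543% in replicate 1 and 0.744% in replicate 2. The ratio of the first sum to the second was 6.95 in replicate 1 and 4.34 in replicate 2. Both values are inflated to an unknown degree by the missing reads of miR-125b-5p. Together the 6 genes held 4.14% ± 0.242. Levels are counts scaled to 1000000 sense-strand miRNA counts (CPM), over 3961630 counts in replicate 1 and 1686822 in replicate 2. A read spans a mature miRNA, so CPM was not divided by precursor length, and dividing by it left the order of the 6 genes as it was.

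Mir99a, at chromosome 16, 77598936 to 77599000 (mm10, plus strand), lies in an intron of the noncoding host gene Mir99ahg and, on the other strand, of Gm11146. It had 90206 counts or 22770 CPM in replicate 1 and 40190 counts or 23826 CPM in replicate 2. The exact 95% intervals, which cover counting error only, ran from 22623 to 22917 CPM and from 23596 to 24057 CPM. The 2 values lay close together (23298 ± 747 CPM, SD, n = 2), and the gene ranked 13th and 14th among the 2202 genes in these libraries. Mir99a made up 60.4% of the miR-99/100 counts in replicate 1 and 73.8% in replicate 2.

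Mir100, the near twin of Mir99a, lies at chromosome 9, 41531425 to 41531504, in introns of the noncoding genes 3110039I08Rik and Gm49317. On the other strand it overlaps an exon of the noncoding gene Gm48742. It had 14293 counts or 3608 CPM in replicate 1 and 6685 counts or 3963 CPM in replicate 2, a mean of 3785 ± 251 CPM (SD, n = 2). Mir99a exceeded Mir100 by 6.31 times in replicate 1 and 6.01 times in replicate 2, so this ratio was nearly the same in both libraries. A read of one form that carries an error at the base that differs can match the other, and the size of such exchange was not tested.

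Mir99b, at chromosome 17, 17830188 to 17830257 in an intron of the protein-coding gene Spaca6, was the member that varied most. It had 44902 counts or 11334 CPM in replicate 1 and 7573 counts or 4490 CPM in replicate 2. Its mean of 7912 CPM thus carries an SD of 4840 CPM (n = 2), and it ranked 24th in replicate 1 and 41st in replicate 2. It was 3.14 times as high as Mir100 in replicate 1 and 1.13 times as high in replicate 2.

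**Figure D1:**
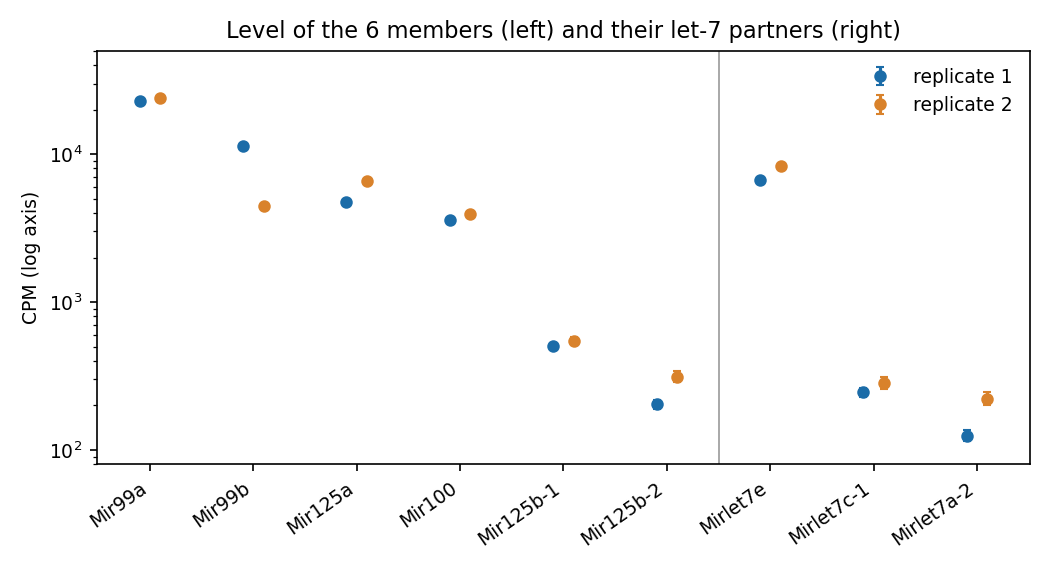
Level of each gene in each library in CPM on a log axis, with replicate 1 left of replicate 2; bars are exact 95% counting intervals, mostly smaller than the points. Mir99a lies highest in both libraries at 22770 and 23826 CPM, and the points of Mir99b lie farthest apart of the 6 members, at 11334 and 4490 CPM.

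Among the miR-125 genes Mir125a gave most of the uniquely placed counts. Its position is chromosome 17, 17830812 to 17830879, overlapping an annotated exon of Spaca6. It had 18703 counts or 4721 CPM in replicate 1 and 11112 counts or 6588 CPM in replicate 2. These made up 87.0% of the counts of the 3 miR-125 genes in replicate 1 and 88.5% in replicate 2, shares that would be lower if reads of miR-125b-5p could be placed.

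Mir125b-1, at chromosome 9, 41581926 to 41582002, lies in introns of 3110039I08Rik and Gm49317 and overlaps an exon of the noncoding gene Gm28119. It had 1998 counts or 504 CPM in replicate 1 and 919 counts or 545 CPM in replicate 2, which is 525 ± 28.6 CPM (SD, n = 2). Mir125b-2, at chromosome 16, 77646273 to 77646343, lies in an intron of Mir99ahg and overlaps an exon of the noncoding gene C130023A14Rik. It had 806 counts or 203 CPM in replicate 1 and 527 counts or 312 CPM in replicate 2, which is 258 ± 77.1 CPM (SD, n = 2). Mir125b-1 was the higher of these 2 loci in both libraries, by 2.48 times in replicate 1 and 1.74 times in replicate 2. This compares reads that are unique to each locus, such as those of the 3p forms printed above, and not the output of miR-125b-5p.

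By mean CPM the 6 genes ran in the order Mir99a, Mir99b, Mir125a, Mir100, Mir125b-1 and Mir125b-2. The places of Mir99b and Mir125a are not settled. Mir99b was 2.40 times as high as Mir125a in replicate 1 but 0.682 times as high in replicate 2, and their ranges overlap. The other neighbours in this order held the same order in both libraries without overlap. The closest of these was the pair of Mir125a and Mir100, with ratios of 1.31 in replicate 1 and 1.66 in replicate 2. The places of Mir125b-1 and Mir125b-2 hold for uniquely placed counts only, because reads of miR-125b-5p were set aside. Where miR-125b would stand as a miRNA cannot be read from this order.

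A second gene group carries the miR-125 seed. Among the 1058 genes with a mature form in the RefSeq table, no gene other than the 3 members had the seed ACCCGUA, whereas CCCUGAG was also found in Mir351, Mir6367 and Mir6394. Mir351, an X-linked gene beside Mir322 and Mir503, is printed here with its seed in capitals to show that it matches miR-125a-5p and miR-125b-5p over the first 8 bases and then departs from both.
miR-351-5p: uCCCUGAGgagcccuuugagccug

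Mir351 had 5983 CPM in replicate 1 and 7701 CPM in replicate 2, a mean of 6842 ± 1215 CPM (SD, n = 2). It stood above Mir125a in both libraries, although their ranges overlap. Mir6367 and Mir6394 had no count in either library, which allows up to 0.757 CPM in replicate 1 and 1.78 CPM in replicate 2. With Mir351, genes of this seed held 1.33% ± 0.264 of the counts (SD, n = 2), of which the 3 members gave 0.644%. Reads of miR-125b-5p, which has this seed, were set aside. That lowers the sum and raises the part of Mir351 in it, both to an unknown degree. The gene count does not separate the 2 arms of a precursor, so reads of 3p forms, which have other seeds, are in these sums.

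**Figure D2:**
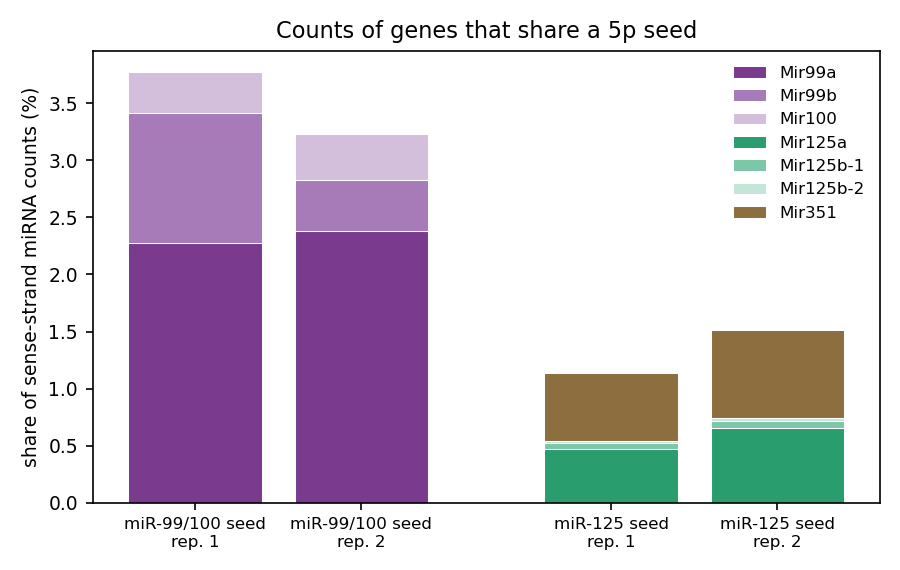
Share of sense-strand miRNA counts, in percent, of the genes whose 5p form has the miR-99/100 seed or the miR-125 seed, stacked by gene for each library. Mir99a is the largest part of the first group. Mir351 with Mir125a makes up nearly all of the uniquely placed counts of the second, which total 1.14% in replicate 1 and 1.51% in replicate 2. Reads of miR-125b-5p were set aside and are in neither the bars nor these totals.

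The miR-10 genes of the Hox clusters are close relatives of miR-99/100. Their 5p forms, given with the seed in capitals, align to those of miR-99/100 with a gap of 1 base.
miR-10a-5p: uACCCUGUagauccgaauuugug
miR-10b-5p: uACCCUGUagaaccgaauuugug

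In an alignment that allows a gap, miR-100-5p matches miR-10a-5p at 20 of 23 positions and miR-10b-5p at 19. Mir10a and Mir10b together held 8.15% of the counts in replicate 1 and 8.25% in replicate 2, and so stood above the miR-99/100 genes in both libraries. Within that sum Mir10a had 65562 CPM in replicate 1 and 52943 CPM in replicate 2, whereas Mir10b had 15904 CPM in replicate 1 and 29522 CPM in replicate 2.

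The 3 clusters differed in how their counts fell on the miR-99/100, let-7 and miR-125 genes. The cluster on chromosome 16 spans 47408 bases, with 656 bases between Mir99a and Mirlet7c-1 and 46522 bases from there to Mir125b-2. Mir99a held 98.1% of its counts in replicate 1 (exact 95% interval 98.0 to 98.2%) and 97.6% in replicate 2 (97.4 to 97.7%). Mirlet7c-1 held 1.05% in replicate 1 and 1.16% in replicate 2. Mir125b-2 held 0.876% in replicate 1 and 1.28% in replicate 2. The mature let-7c-5p is also made by Mirlet7c-2, so both partners of Mir99a have a 5p form whose reads fit another locus and were set aside, and the share of Mir99a is raised by that to an unknown degree.

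The cluster on chromosome 9 spans 50578 bases and was read mostly from Mir100. Mir100 held 85.1% of its counts in replicate 1 (84.6 to 85.7%) and 83.8% in replicate 2 (83.0 to 84.6%). Mir125b-1 held 11.9% in replicate 1 and 11.5% in replicate 2. Mirlet7a-2 held 2.95% in replicate 1 and 4.70% in replicate 2. The hairpins of Mirlet7a-2 and Mirlet7a-1 in RefSeq have a run of 23 bases in common that holds let-7a-5p. Both partners of Mir100 thus have a 5p form whose reads were set aside, which raises the share of Mir100 to an unknown degree. As on chromosome 16, the shares moved by at most 1.75 percentage points between the libraries.

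The cluster on chromosome 17 is compact, at 692 bases, with 94 bases between Mir99b and Mirlet7e and 367 bases between Mirlet7e and Mir125a. All 3 of its genes were abundant. Their 5p forms each have a sequence of their own in the RefSeq table, so that this cluster is the one whose makeup can be read most directly. The let-7 form is printed with its seed in capitals.
let-7e-5p: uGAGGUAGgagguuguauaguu

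Mirlet7e had 26527 counts or 6696 CPM in replicate 1 and 14086 counts or 8351 CPM in replicate 2. It gave 94.8% of the counts of the 3 let-7 partners in replicate 1 and 94.3% in replicate 2, shares that would be lower if reads of let-7a-5p and let-7c-5p could be placed. In the count column that ignores strand it had 0 counts in both libraries, because the predicted miRNA gene Gm25927 is annotated across it on the other strand. The 6 members had no count on their opposite strand, and their sense-strand and either-strand counts were equal.

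Mir99b held 49.8% of this cluster's counts in replicate 1 (49.5 to 50.1%) and 23.1% in replicate 2 (22.7 to 23.6%). Mirlet7e held 29.4% in replicate 1 and 43.0% in replicate 2. Mir125a held 20.8% in replicate 1 and 33.9% in replicate 2. The ratio of Mir99b to Mirlet7e was 1.69 in replicate 1 and 0.538 in replicate 2. In contrast, the ratio of Mir125a to Mirlet7e was 0.705 in replicate 1 and 0.789 in replicate 2. These ratios do not depend on the library total, so the difference lay with Mir99b relative to both of its neighbours.

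**Figure D3:**
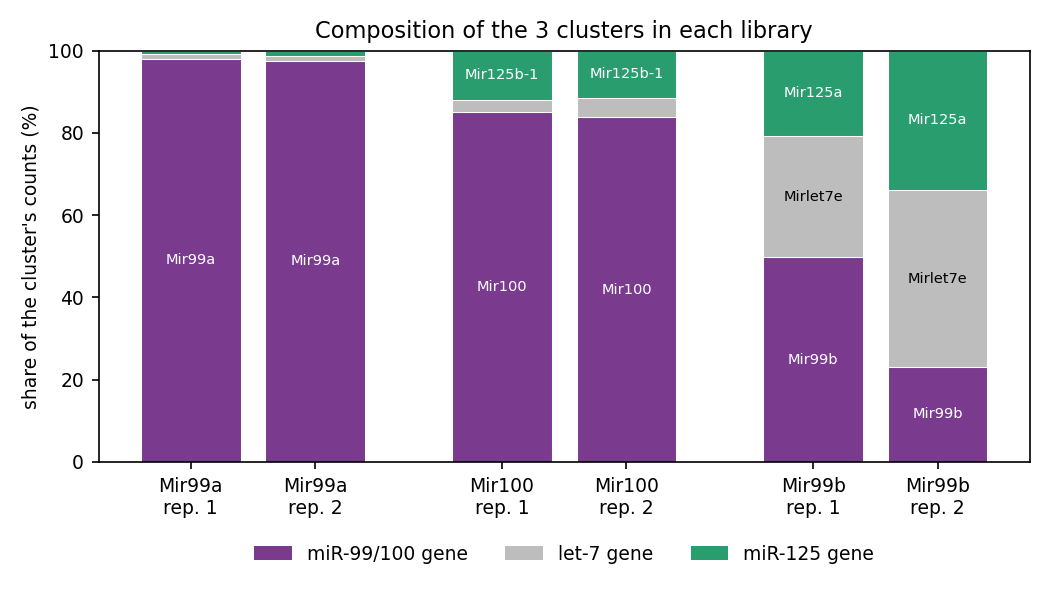
Share of each gene, in percent, in the summed counts of its cluster, for replicate 1 and replicate 2 of each cluster. The makeup of the Mir99a and Mir100 clusters is alike in both libraries, whereas Mir99b makes up 49.8% of its cluster in replicate 1 and 23.1% in replicate 2.

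Differences between the 2 libraries were tested per gene with a two-sided exact binomial test, which takes the library totals as the null ratio. P-values were adjusted by Benjamini-Hochberg over the 404 genes that reached 10 counts in replicate 1 or replicate 2. A call needed an adjusted p under 0.05 and a log2 ratio, replicate 1 over replicate 2 on CPM + 0.5, above 1 or below -1. The test compares these 2 libraries, not conditions, and knows counting error only. Of the 6 members, 1 was called, in a background of 18.3% of tested genes called in either direction and 8.66% called higher in replicate 1. The share of members called is near the background and is no result about the families.

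The called member was Mir99b, 2.52-fold higher in replicate 1 (exact 95% interval 2.46 to 2.59; log2 ratio 1.34, adjusted p under 1e-300). The other 5 members had log2 ratios below 0 and were not called. Mir125b-2 had -0.62, Mir125a -0.48, Mir100 -0.14, Mir125b-1 -0.11 and Mir99a -0.065. That of Mir99a became 0.042 under scaling by trimmed mean of M-values (TMM) and by DESeq2 size factors, which raise all ratios by about 0.107. All but Mir125b-1 passed the adjusted p alone, as did 62.1% of all tested genes, and this count is no result about the families. For Mir125b-1 the exact binomial test gave an adjusted p of 0.0830. Regardless of sign, the log2 ratios had a median of 0.31 over the 6 members and 0.50 over all tested genes.

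The let-7 partners were not called either. Mirlet7a-2 had a log2 ratio of -0.83, Mirlet7e -0.32 and Mirlet7c-1 -0.21. Of the 12 genes of the whole let-7 family, 0 were called by the exact binomial test with its limit on size, although 12 had an unadjusted p under 0.05. Over all tested genes 18.3% were called and 64.6% had an unadjusted p under 0.05, and neither count is read as a result about let-7. Mirlet7i alone had a ratio above 0 (0.032). The 3 partners held 0.796% ± 0.127 of the miRNA counts (SD, n = 2) and the other 9 let-7 genes 18.2% ± 1.18, with reads that fit several let-7 loci left out of both.

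**Figure D4:**
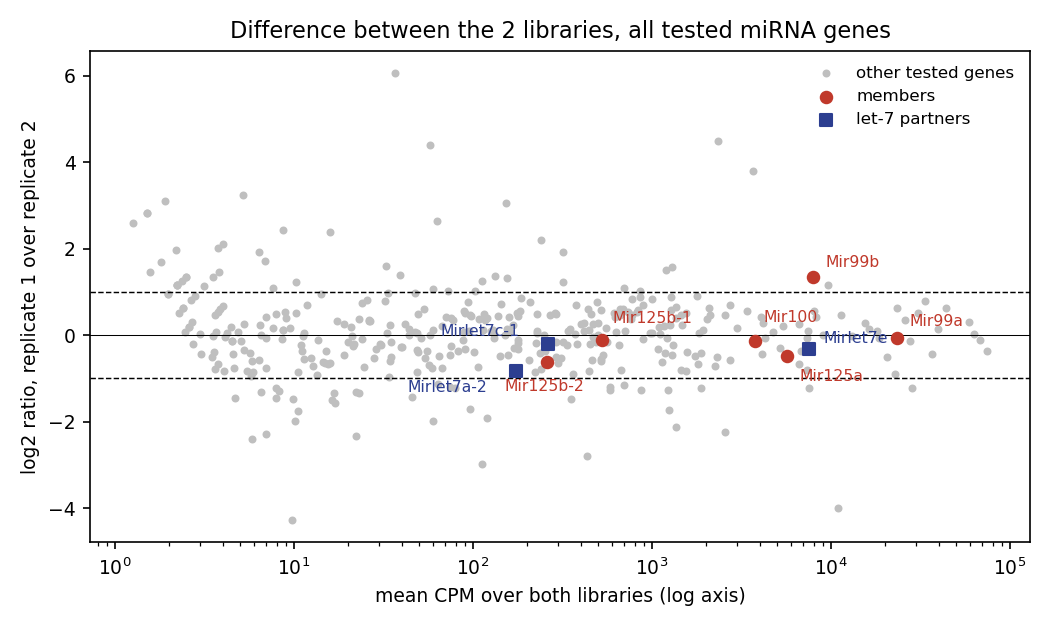
Log2 ratio of replicate 1 over replicate 2 against mean CPM (log axis) for the 404 tested genes; dashed lines mark log2 ratios of 1 and -1, and members and let-7 partners are coloured. Mir99b lies above the upper line at 1.34, and the other 5 members lie between the lines and below 0.

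Markers of other cells also differed between the libraries, and their part in the difference of Mir99b was not tested. In bulk tissue, fewer cells of a type and less RNA per cell cannot be told apart. The red blood cell list (3 of 3 genes detected) was at 7248 CPM in replicate 1 and 595 CPM in replicate 2, through Mir451a and Mir144, while Mir486 had 12.4 CPM in replicate 1 and 19.6 CPM in replicate 2. Whether reads of Mir486 also fit another locus was not tested. The liver marker Mir122 had 1299 CPM in replicate 1 and 20602 CPM in replicate 2. The striated muscle list, 3 of 10 genes detected, had 1146 CPM in replicate 1 and 2699 CPM in replicate 2, nearly all of it from Mir206. Mir133a-2 was at 0, but Mir133a-1 and Mir133a-2 make the same mature form, as do Mir1a-1 and Mir1a-2, and reads that fit more than 1 locus were set aside, so low counts at these 4 genes say little about their miRNAs. Pancreatic acinus, 0 of 3 detected, had 0.505 CPM in replicate 1 and 20.7 CPM in replicate 2. With the liver, red blood cell and striated muscle genes left out of the totals, Mir99b was again the only member called, with a log2 ratio of 1.32. This changes only the denominator, which moves the ratios of all genes nearly alike, and so is no test of the part of those cells.

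In 3 further lists the genes went different ways, so that the sums do not describe each gene. The kidney list, 3 of 5 detected, had 241 CPM in replicate 1 and 379 CPM in replicate 2, with 4 genes called. Of these, Mir215 (72.4 CPM in replicate 1 and 0.593 CPM in replicate 2) and Mir194-1 were higher in replicate 1. In contrast, Mir192 (49.7 CPM in replicate 1 and 190.3 CPM in replicate 2) and Mir194-2 were lower there. However, Mir194-1 and Mir194-2 make the same 5p form, whose reads were set aside, so their opposite ratios do not describe that miRNA. The epithelial list, 7 of 7 detected, had 1318 CPM in replicate 1 and 936 CPM in replicate 2. Mir200b, called, made up much of that difference with 272 CPM in replicate 1 and 32.0 CPM in replicate 2, while Mir203 had 533 CPM in replicate 1 and 594 CPM in replicate 2. Of 7 names listed for leukocytes, 5 matched a gene of the tables and 4 were detected, at a sum of 858 CPM in replicate 1 and 1340.4 CPM in replicate 2. The unmatched names were Mir142hg and Mir146a, so neither is in this sum. Among the detected genes Mir223 was called, with 187 CPM in replicate 1 and 521 CPM in replicate 2, while Mir155 had 118 CPM in replicate 1 and 69.4 CPM in replicate 2.

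The sums of the remaining lists differed less between the libraries, although in some of these, too, the genes went different ways. Smooth muscle and stroma, 5 of 7 genes detected with Mir145b at 0, were at 44628 CPM in replicate 1 and 41834 CPM in replicate 2. Mir143 gave most of this sum, while Mir214 went the other way, with 2181 CPM in replicate 1 and 3251 CPM in replicate 2. Mir199a-1, Mir199a-2 and Mir199b have a 3p form in common, whose reads were set aside. Endothelium, 2 of 2 detected, had 65225 CPM in replicate 1 and 83398 CPM in replicate 2. Nearly all of this was Mir126a, since Mir126b, which overlaps it on the other strand, had 3.79 CPM in replicate 1 and 7.11 CPM in replicate 2. Neuroendocrine genes, 7 of 7 detected and led by Mir375, had 36907 CPM in replicate 1 and 47026 CPM in replicate 2. By contrast, Mir182 and Mir7-2 were called higher in replicate 1. Mir7-2 makes the same 5p form as Mir7-1, and reads of that form were set aside. Neuronal genes, 3 of 9 detected and led by Mir137, had 1081 CPM in replicate 1 and 802 CPM in replicate 2. Mir128-2, the called gene of this list, went the other way, with 12.6 CPM in replicate 1 and 32.0 CPM in replicate 2. Reads of the forms that Mir128-2 shares with Mir128-1, and that the Mir9 genes share, were set aside. Mir124a-2 and Mir124a-3 had no count and Mir124a-1 had 0 in replicate 1 and 1 in replicate 2, but these 3 loci make the same mature form, so that the level of the neuronal miR-124 cannot be read from them. The files hold no messenger RNA, so the steroid-producing cortex could not be checked by its enzymes.

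By distance on log2(CPM + 0.5) over the 2 libraries, the gene most like Mir100 was Mir433, at a distance of 0.012 with 3600 CPM in replicate 1 and 3932 CPM in replicate 2. Mir125b-1 was nearest to Mir668 (distance 0.13), Mir125b-2 to Mir543 (0.17), Mir125a to Mir382 (0.20), Mir99a to Mir411 (0.34) and Mir99b to Mir130a (0.47). With 2 libraries this likeness says little beyond a similar level. In the ranking of mean CPM, Mir99a lay between Mir335 at 25930.0 ± 4383 CPM and Mir23a at 23251 ± 7164 CPM (SD, n = 2 each), a distance from either that is within their spread. Mir99b was directly followed by its own cluster partner Mirlet7e, and Mir125b-2 came directly after Mirlet7c-1 of its own cluster.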

How the data were processed

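MiRNA counts were analysed for 2 adrenal libraries of 1 group, numbered by the biological replicate in the labels. The authors deposited whole-number read counts per gene, 1 table per library with 3 count columns and 4 summary rows. Per the file lists deposited beside them, build mm10 and annotation M21 were used; aligner, trimming and read filters are not given in the sources used here. The third column of each table, the sense strand, was used. Left out of totals were the summary rows (66.3% of the reads of replicate 1, 74.3% of those of replicate 2), which hold reads given to no gene. Nothing but the labels says that the libraries come from separate animals, so their spread may be technical.

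All 2202 identifiers matched GENCODE M21. Computed here were CPM, exact Clopper-Pearson 95% intervals, the exact binomial test per gene and pairwise sequence alignments. The exact binomial test was tried on simulated counts with known changes and counting error only, which leaves out any further spread between real libraries. Named genes were the members, partners, miR-10 genes, genes of the same seed, neighbours in level and marker lists. Members and lists were chosen with earlier results of these data known. Alternatives covered the count column, TMM factors (edgeR 4.0.16), DESeq2 1.42.0 size factors, totals, thresholds and CPM + 5. Software was R 4.3.3, Python 3.11.15, numpy 2.4.6, pandas 2.3.3, scipy 1.17.1 and Biopython 1.88.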

Additional observations from a re-analysis of the deposited data

How the results depend on the processing

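With 1 group of 2 libraries, leaving 1 out returns the value of the other: the miR-99/100 sum was 32278.5 to 37712 CPM and the miR-125 sum 5429 to 7445 CPM, against means of 34995 and 6437 CPM, and the level of Mir99b was 4490 to 11334 CPM. No paired analysis was possible because only 1 group was measured. In the either-strand column the miR-99/100 sum was 39949.7 CPM, since the total is smaller there, and Mir99b held 55.6% of its cluster on average against 36.5%, because Mirlet7e has no count in that column; in the sense column this share was 23.1% without replicate 1 and 49.8% without replicate 2. Scaled to 1000000 of all reads, summary rows included, the sums were 10498 and 1871 CPM, a change of denominator. At a log2 ratio over 0.58, 2 members were called, Mir99b and Mir125b-2, among 132 genes or 32.7% of those tested. At any size 5 members were called among 251 genes or 62.1%, against 1 member among 74 genes or 18.3%. None of these counts is a result about the families. The log2 ratio of Mir99a was -0.065, and 0.042 under TMM and under DESeq2 scaling, which shift all ratios by 0.107. Mir99b was called under all 8 alternatives of the library test. Depth limits Mir125b-2 most of the members, with 806 and 527 counts.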

Other observations

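Splits of library ratios between close neighbours were also seen at other loci, a description made after the data had been seen. Among 73 pairs of detected neighbouring miRNA genes on 1 strand with at most 1000 bases between them, the log2 ratios of replicate 1 over replicate 2 differed by a median of 0.44. The pair of Mir99b and Mirlet7e differed by 1.65, with 4 pairs above it, and the pair of Mirlet7e and Mir125a by 0.16. The 4 pairs were Mir296 with the imprinted Mir298 at Gnas (3.26), Mir487b with Mir539 in the Dlk1-Dio3 region (2.54), Mir200a with Mir200b of epithelia (2.33) and Mir130b with Mir301b (1.76). Which pairs come from 1 transcript was not tested, and pairs that share a gene are not independent.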
